A study of Mus musculus with 6 samples.

Results

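Long intergenic noncoding RNAs (lincRNAs) are transcripts that code for no known protein and are annotated between protein-coding genes. The set described here holds every autosomal gene that the deposited tables class as lincRNA, other than the targeted gene Gm12840, with a value over 1 FPKM in at least 3 of 6 libraries. FPKM is a read number scaled by transcript length and by the authors' library total. This rule kept 173 of 4742 such lincRNA genes, out of 54551 features in the tables. The genes were thus chosen by their measured FPKM level, so their levels are given as a description with no test.

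The 6 libraries came from granulosa cells, the somatic cells that surround the oocyte and make estradiol and, after the ovulatory signal, progesterone. The animals were C57BL/6 mice at postnatal day 21, first given PMSG (5 IU for 48 h), which acts like follicle-stimulating hormone, and then hCG (5 IU for 6 h), which acts like the ovulatory surge of luteinizing hormone. Libraries KO 1 to KO 3 are labelled Gm12840-/- and libraries WT 1 to WT 3 are labelled wild type, and genotype is the one labelled difference. The labels say neither which bases of Gm12840 were removed nor whether libraries of 1 group came from separate animals, so p-values measure the spread between these libraries, which may be technical. KO and WT below always mean the label, because Gm12840 itself was not lower in every library labelled knockout.

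LincRNAs act in several ways. Some build structures in the nucleus, such as Malat1 in speckles and Neat1 in paraspeckles. Others are hosts: the spliced RNA surrounds small nucleolar RNAs (snoRNAs), which guide the chemical modification of ribosomal RNA, or microRNAs (miRNAs), which silence messenger RNAs by pairing through their seed, bases 2 to 8. A further class is imprinted and read from 1 parental chromosome, H19 being the best known, and many lincRNAs start beside a protein-coding promoter and run away from it.

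Depth was alike between the groups, at 16392098 to 17020427 reads per library in KO and 16609477 to 19465847 in WT. The largest axis of variation did not follow genotype. The first principal component over the 12495 genes of any class that met the same level rule took 83.3% of the variance, and it put KO 1, KO 2 and WT 3 on 1 side and KO 3, WT 1 and WT 2 on the other. Mitochondrially encoded genes took 1.52%, 4.19% and 0.146% of reads in KO 1 to KO 3, against 0.227%, 0.311% and 2.08% in WT 1 to WT 3. Ribosomal protein genes took nearly the reverse order, at 5.79%, 3.49% and 11.1% in KO and 12.1%, 8.87% and 4.30% in WT. The part of this split in any genotype difference was not tested. All 10 listed granulosa markers, Fshr and Cyp19a1 among them, were over the level rule, with sums of 4720 to 9512 FPKM in KO libraries and 6475 to 12355 in WT libraries. Markers of other ovarian cells were also present. Oocyte markers summed to 222 to 351 FPKM in KO libraries and 246 to 408 in WT libraries, erythroid markers to 473 to 3512 in KO and 613 to 4455 in WT, and theca markers to 85.9 to 112 in KO and 72.8 to 149 in WT. Endothelial markers summed to 20.4 to 24.4 FPKM in KO libraries and 11.6 to 20.8 in WT libraries, and leukocyte markers to 31.1 to 43.8 in KO and 30.6 to 47.9 in WT, with Ptprc, Adgre1 and Cd3e never over 1 FPKM.

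The first sequences shown link these lincRNAs to the targeted gene. Gm12840 (ENSMUSG00000086320, chromosome 4, 117700188 to 117700923, plus strand, 627 nt) has a near copy at 1 locus on chromosome 6 (mm10). Its transcript aligned at 97.5% identity over 628 positions to Gm20186 and at 97.1% over 513 positions to Gm26809, both expressed lincRNAs of that locus. A stretch of 60 bases is shown in which capitals mark the 3 positions that differ. It was chosen as the aligned window with the most differences, so it is not typical of the whole alignment. The letters were read from the GENCODE M21 transcripts at chr4:117700636-117700695 on the plus strand and chr6:18846226-18846285 on the minus strand.
Gm12840: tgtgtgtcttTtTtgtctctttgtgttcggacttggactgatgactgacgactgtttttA
Chromosome 6 locus: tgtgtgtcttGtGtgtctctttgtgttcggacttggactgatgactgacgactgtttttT

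The other sequences are mature miRNAs that lie inside expressed lincRNAs, which show what these hosts carry. They are from RefSeq (GRCm38.p6), with the seed in capitals. Mir17hg holds the miR-17-92 cluster, known for promoting proliferation, and its miR-17-5p and miR-20a-5p share the seed AAAGUGC, while miR-19a-3p and miR-19b-3p share GUGCAAA. The other hosts shown are Gm2044 for miR-202, a miRNA abundant in gonads, 6720427I07Rik for let-7d, E130102H24Rik for miR-101a and H19 for miR-675.
miR-17-5p: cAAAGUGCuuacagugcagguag
miR-20a-5p: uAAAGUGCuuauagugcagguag
miR-19a-3p: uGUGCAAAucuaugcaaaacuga
miR-19b-3p: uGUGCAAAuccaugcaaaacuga
miR-202-5p: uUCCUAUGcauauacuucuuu
let-7d-5p: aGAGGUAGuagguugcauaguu
miR-101a-3p: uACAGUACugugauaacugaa
miR-675-5p: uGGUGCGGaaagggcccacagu

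The 173 lincRNAs were mostly scarce, and a few genes made up much of their RNA. The median lincRNA averaged 1.69 FPKM over the 6 libraries, against 7.36 FPKM for the median of 10683 protein-coding genes that met the same level rule. Of the 173, 3 genes averaged over 100 FPKM, 19 averaged over 10, 129 lay between 1 and 10 and 25 averaged under 1. The 4 most abundant, Gm26917, Gm10076, Epb41l4aos and Malat1, held 44.3% of the summed mean FPKM, and the top 10 held 60.3%. Of these, Gm10076 is a near copy of a ribosomal protein gene, so its part of that share is uncertain. A total of 77 were over 1 FPKM in all 6 libraries and 54 in exactly 3. Just inside the level rule were Gm36447 and Gm5, whose third-highest values both round to 1.00 FPKM, and just outside were D930030I03Rik at 0.989 and 1700048O20Rik at 0.987. A median gene rested on 233 reads in all libraries together, with a range of 24 to 66082, and 46 genes had a library with under 10 reads.

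As a share of all reads the set was small. It took 0.224%, 0.298% and 0.325% of reads in KO 1 to KO 3, against 0.244%, 0.242% and 0.245% in WT 1 to WT 3. The WT libraries were nearly equal, and the KO libraries lay on both sides of them. Gm26917 alone gave 27355 of the 55351 reads of the set in KO 3. Summed FPKM varied more, at 899, 869 and 1792 in KO against 1619, 1351 and 883 in WT, and the high values were in KO 3, WT 1 and WT 2. Without the 4 most abundant genes these sums were 636, 568 and 759 FPKM in KO and 843, 721 and 602 in WT.

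Some of these genes overlapped other genes in their exons, and overlap with introns was not counted. In GENCODE M21, which has 172 of the 173, the exons of 40 overlapped exons of another gene. Of these, 30 overlapped a gene on the other strand and 11 a protein-coding gene. The 40 include hosts that overlap the small RNAs they hold, such as Mir17hg and Snhg12. Strand is not kept by the library kit, so reads within the overlapping stretches of genes on opposite strands cannot be told apart. Cut into 50-base words, 100 of the genes shared no word with any other gene's transcripts and 8 shared over 50% of them. Of those 8, Gm10076 was the most abundant: 69.9% of its words also occur elsewhere, mostly in Rpl41. Gm10076 aligned to this ribosomal protein gene at 99.5% identity over 383 positions, so its values are uncertain. Rpl41 itself was at 1409, 731 and 5622 FPKM in KO 1 to KO 3 and 5582, 3616 and 932 in WT 1 to WT 3. Both genes were highest in KO 3, WT 1 and WT 2. Only GENCODE M21 transcripts were compared, so a repeat outside them would be missed. This limit also holds for Gm26917, the most abundant lincRNA. It shared no word with these transcripts, which does not show that its reads are its own. Compared with the 4569 autosomal lincRNAs under the level rule, the expressed ones were of similar length, with a median of 1159 nt against 1007 nt. They lay closer to a protein-coding start, at a median of 24653 bp against 61776 bp. A divergent pair had a coding start on the other strand, within 1000 bp upstream of the lincRNA start or under 50 bp past it. This was so for 22 expressed lincRNAs (12.7%), against 226 of the lower ones (4.95%).

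In the 22 divergent pairs the protein-coding partner was usually the more abundant RNA. It exceeded the lincRNA in 19 pairs, with a median ratio of 4.78 and a range of 0.240 to 198. The extreme was Gm17501 beside Cyr61, which encodes a matrix protein induced in ovulating follicles. Gm17501 averaged 1.09 ± 0.128 FPKM in KO and 0.960 ± 0.134 in WT, while Cyr61 averaged 229 ± 95.1 FPKM in KO and 178 ± 81.4 in WT (SD, n = 3 each). Among the 3 pairs with the more abundant lincRNA was Snhg18, a snoRNA host beside Sema5a, an axon guidance gene. Snhg18 averaged 15.3 ± 4.46 FPKM in KO and 16.9 ± 5.17 in WT, above Sema5a at 12.7 ± 8.46 in KO and 8.22 ± 3.59 in WT (SD, n = 3 each). A further pair was picked after its values were seen. Gm15473 averaged 3.33 ± 1.30 FPKM in KO and 4.56 ± 1.48 in WT beside Tes, a focal adhesion gene, at 55.7 ± 5.09 in KO and 72.0 ± 7.18 in WT (SD, n = 3 each).

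No expressed lincRNA passed the test between the genotypes. Limma on log2(FPKM + 1), with Benjamini-Hochberg adjustment over 12495 genes and a threshold of 0.05, called 0 of the 173 lincRNAs and 0% of all genes tested. At an unadjusted p under 0.05 it gave 6 lincRNAs (3.47%), beside 91 genes of all classes (0.728%). With limma-voom, run on whole reads recovered from the FPKM values, the number called was again 0, with 5 lincRNAs and 74 genes at an unadjusted p under 0.05. The lowest adjusted p among the lincRNAs was 0.993. Leaving out KO 3 and WT 3 together, which leaves the labels on opposite sides of the first component, changed this: limma then called 45 lincRNAs (13 higher and 32 lower in KO) and 27.6% of all genes tested. The difference was negative, that is lower in KO, for 108 lincRNAs (62.4%) and positive for 65, beside 55.0% negative over all genes tested. The median log2 difference was -0.10 for lincRNAs and -0.04 over all genes, and both medians moved with the processing, to -0.03 for lincRNAs and 0.04 for all genes when library totals were used. With limma-voom they were -0.20 and -0.06, and with a pseudocount of 0.1 they were -0.17 and -0.04. The depth and spread left wide limits: the unadjusted 95% interval of a lincRNA's log2 difference extended a median of 0.72 to either side. The adjusted threshold is stricter, so changes larger than that could also go uncalled. Gm6093 at 1.14 and Gm42031 at -2.19 both had limma adjusted p = 0.993. In bulk RNA of this kind, fewer cells of a type and less RNA per cell cannot be told apart.

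**Figure D1:**
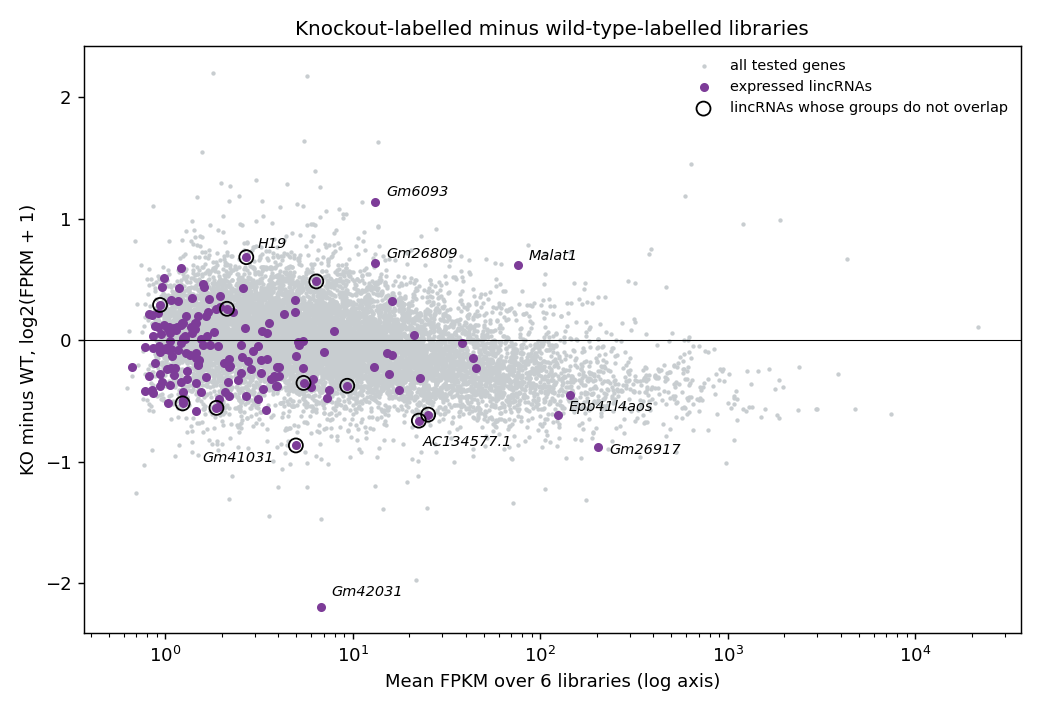
Log2 difference, KO minus WT libraries, of log2(FPKM + 1) against mean FPKM over the 6 libraries on a log axis, for all 12495 tested genes (grey) and the 173 expressed lincRNAs (purple), with black rings on those whose KO and WT values do not overlap. Most lincRNAs sit at low level within 1 of 0, Gm42031 is the lowest at -2.19 and Gm6093 the highest at 1.14, and none passed the adjusted threshold.

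The 3 KO values lay all above or all below the 3 WT values for 11 lincRNAs, where 3.53% of all tested genes did so. Of these, 4 were higher in every KO library, 2.31% of the set beside 1.45% of all tested genes, and 7 were lower in every KO library, 4.05% beside 2.08%. The higher ones were H19, 1700020I14Rik, Gm43597 and, outside the rule for naming, Dubr, a lincRNA known in mouse muscle cells. Gm43597 entered the set through its KO libraries alone, so its lack of overlap follows from the level rule.

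H19, an imprinted growth-related RNA read from the maternal chromosome, was at 4.41, 3.62 and 2.67 FPKM in KO 1 to KO 3, against 2.11, 1.32 and 2.07 FPKM in WT 1 to WT 3. The lowest KO value lay above the highest WT value. The log2 difference was 0.68 ± 0.23 (SE), with limma adjusted p = 0.993. H19 is known from mesenchymal tissues, and all 9 tested stromal, pericyte and smooth muscle markers had positive differences (0 called, median log2 0.49). The summed level of the listed markers was 116, 91.4 and 115 FPKM in KO 1 to KO 3 and 122, 63.8 and 64.7 in WT 1 to WT 3, and these overlapped. Acta2, a smooth muscle actin gene, made up much of each sum. Without it the sums were 63.9, 56.8 and 39.8 FPKM in KO and 38.5, 26.6 and 37.5 in WT. These did not overlap, but KO 3 and WT 1 lay close together, and the list as set includes Acta2. Of the listed markers too low to test, Tagln averaged 0.327 FPKM in KO and 0.599 in WT, while Myh11 and Rgs5 averaged higher in KO. The part of these markers in the H19 difference was not tested. Its neighbour Igf2, the imprinted growth factor read from the paternal chromosome, was listed at 0 in every library, as was Dgcr8, a gene needed for miRNA processing, so a listed 0 may not mean absence here.

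1700020I14Rik, a transcript of 8306 nt, was at 6.04, 9.27 and 7.63 FPKM in KO against 4.84, 4.95 and 5.56 FPKM in WT. Its log2 difference was 0.48 ± 0.21 (SE; limma adjusted p = 0.993).

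Among the lower ones, Gm41031 on chromosome 13 (97796162 to 97825885, minus strand) had the smallest unadjusted p of any expressed lincRNA. It was at 2.62, 2.93 and 4.08 FPKM in KO 1 to KO 3 and 8.77, 5.98 and 5.40 FPKM in WT 1 to WT 3. The log2 difference was -0.86 ± 0.25 (SE), with limma adjusted p = 0.993. Gm15767 and AC134577.1 were the 2 of the 10 most abundant lincRNAs whose groups did not overlap. Gm15767, on chromosome 6, was at 17.3, 19.8 and 21.7 FPKM in KO against 33.3, 35.5 and 23.7 FPKM in WT, a log2 difference of -0.61 ± 0.24 (SE; limma adjusted p = 0.993). AC134577.1, on chromosome 14, was at 18.3, 13.4 and 20.3 FPKM in KO against 26.7, 31.5 and 24.9 FPKM in WT, a log2 difference of -0.66 ± 0.24 (SE; limma adjusted p = 0.993). WT 3 of Gm15767 lay close to the KO range.

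The other 4 lower lincRNAs were 1010001N08Rik, which starts next to Gata6, a transcription factor gene of steroid-making cells, and 1700007L15Rik, Gm11274 and AC138604.2. 1010001N08Rik was at 7.48, 8.13 and 8.39 FPKM in KO against 10.3, 11.5 and 10.1 FPKM in WT. The log2 differences of these 4 ran from -0.56 for 1700007L15Rik to -0.35 for AC138604.2. Without KO 2 that of 1700007L15Rik was -0.36, and with limma-voom it was -0.88. Without KO 1 that of Gm11274 was -0.30. None of the 4 reached an unadjusted p under 0.05.

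Gm42031 differed most between single libraries. This lincRNA (ENSMUSG00000110386, chromosome 8, 85125872 to 85132289, minus strand, 1885 nt) was at 9.19, 0.203 and 0.172 FPKM in KO 1 to KO 3, against 8.15, 9.73 and 12.9 FPKM in WT 1 to WT 3. It was nearly silent in KO 2 and KO 3 and at the WT level in KO 1. The recovered reads were 324, 7 and 5 in KO and 228, 310 and 531 in WT, and the exact 95% Poisson intervals of the low values reach no higher than 0.419 FPKM in KO 2 and 0.402 in KO 3. The mean of the other 4 libraries was 53.2 times that of KO 2 and KO 3. The gap between these 2 libraries and the next was 2.93 on the log2(FPKM + 1) scale, the second largest gap of any tested gene, and Gm42031 was the 1 tested gene with a gap over 2 that set KO 2 and KO 3 below all others. The genotype difference was -2.19 ± 0.83 (SE), with limma adjusted p = 0.993.

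The split of Gm42031 did not follow the main axis of the libraries, since KO 2 and KO 3 lay at its opposite ends. Its flanking features did not show the same pattern. Zfp791, the zinc finger gene next to it, was at 0.926, 1.02 and 0.772 FPKM in KO and 0.663, 0.763 and 0.762 in WT. An unnamed feature 4150 bp away was at 3.20, 0.714 and 2.44 FPKM in KO and 4.24, 4.59 and 1.69 in WT, with KO 2 its lowest library. Of the 50-base words of Gm42031, 59.0% also occur in other genes, most often Gm43305 on chromosome 14, so reads could be shared. Gm43305 was at 1.63, 2.20 and 0.466 FPKM in KO and 0.739, 0.696 and 1.08 in WT, low in KO 3 and highest in KO 2.

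**Figure D2:**
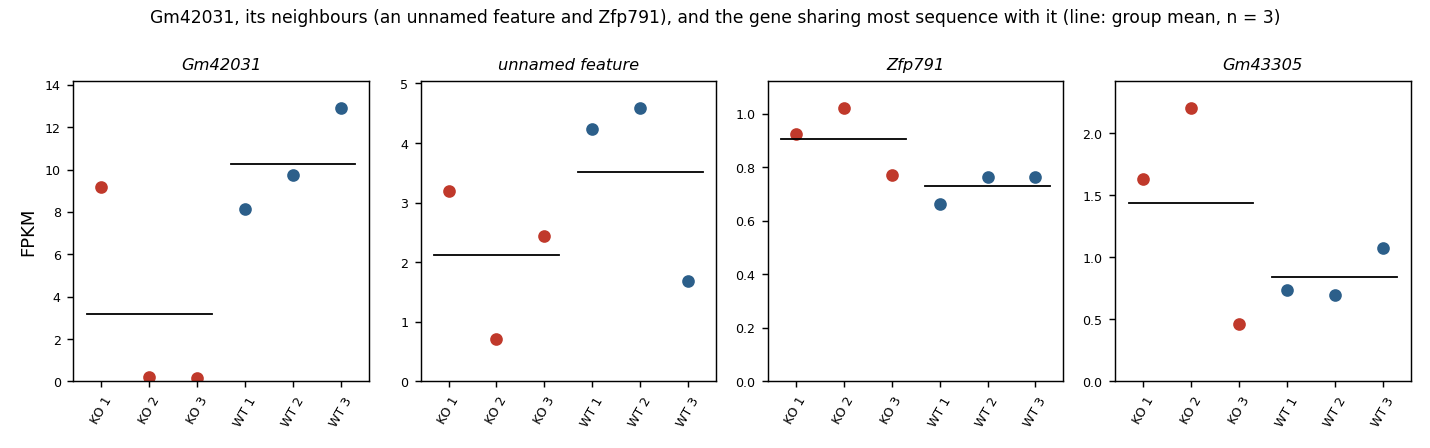
FPKM in each library (points: KO red, WT blue; line: group mean, n = 3) of Gm42031, of its flanking features (an unnamed one and Zfp791), and of Gm43305, which shares most sequence with it. Gm42031 sits near 0 in KO 2 and KO 3 and between 8.15 and 12.9 FPKM in the other 4 libraries, a pattern that none of the other panels shows.

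RefSeq (GRCm38.p6) has a promoter window, 250 bases before to 50 after its own gene start, for 81 of the lincRNAs. That start lay within 50 bp of the start in the deposited tables for 49 of them and farther away for 32, Gm42031 included at 475 bp, so not every window is the promoter of the measured gene. Motifs were searched on both strands and compared with all 27025 windows. TATAAA was in 13 (16.05%, against 15.7% of all), GGGCGG in 34.6% against 38.2%, and CCAAT in 40.7% against 41.1%. TGACTCA, the motif of AP-1 factors, was in 9 (11.1%, against 5.95%), among them Gm12648 and Gm6093. TGACGTCA, the cAMP response element, and CAAGGTCA, the NR5A motif, were in 1 window each (1.23%, against 2.03% and 1.76%). A match says only that these letters are in the window.

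Gm26809, Gm20186 and the targeted gene share sequence, and their values are uncertain for that reason. Of the 578 words of 50 bases in Gm12840, 265 (45.8%) also occur in the transcripts of other genes. Gm26809 (chromosome 6, 18844220 to 18847360, plus strand) and Gm20186 (18845910 to 18848207, minus strand) also overlap each other on opposite strands, and 77.2% of the words of Gm20186 occur elsewhere. Gm12840 itself was at 0.426, 0.611 and 1.45 FPKM in KO 1 to KO 3, against 1.83, 0.566 and 0.365 FPKM in WT 1 to WT 3. That is 5, 7 and 14 reads in KO and 17, 6 and 5 reads in WT. The groups overlapped, and these few reads do not separate the labels. Which of the reads came from Gm12840 and which from its copies cannot be told apart in these tables.

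Gm26809 was far more abundant and more variable. It was at 18.3, 29.2 and 1.72 FPKM in KO 1 to KO 3 and 2.35, 4.17 and 23.4 FPKM in WT 1 to WT 3, a 17.0-fold range. The 3 high libraries, KO 1, KO 2 and WT 3, were those with the most mitochondrial reads. The log2 difference was 0.64 ± 1.08 (SE; limma adjusted p = 0.993), and it turned to -0.05 when KO 2 was left out. Gm20186 ran the other way, at 2.85, 1.20 and 3.40 FPKM in KO and 4.81, 4.11 and 2.40 FPKM in WT, and its groups overlapped. Its divergent partner Lsm8, which encodes a spliceosome protein, was steady, at 10.05 ± 1.56 FPKM in KO and 11.5 ± 1.32 in WT (SD, n = 3 each).

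**Figure D3:**
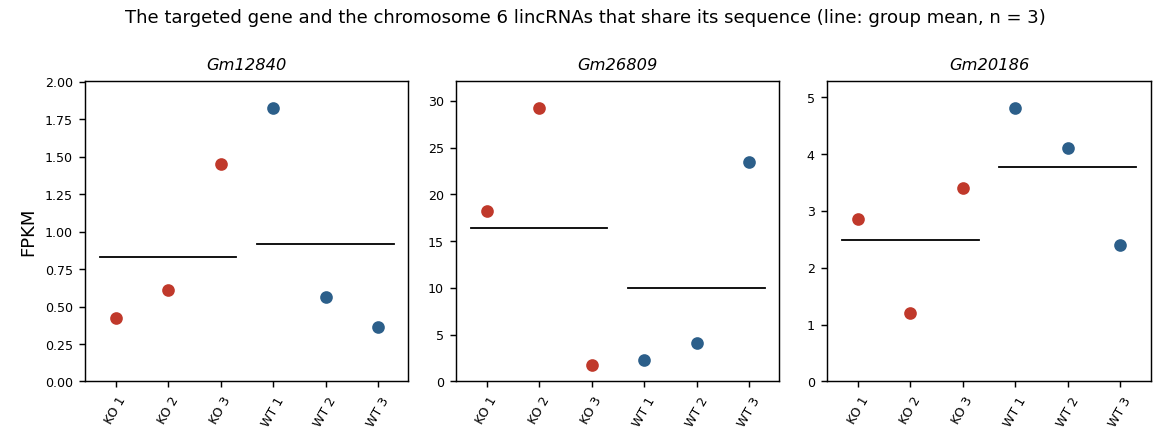
FPKM in each library (points: KO red, WT blue; line: group mean, n = 3) of the targeted gene Gm12840 and of Gm26809 and Gm20186, the chromosome 6 lincRNAs that share its sequence. Gm12840 is lowest in WT 3 and highest in WT 1, and Gm26809 is high in KO 1, KO 2 and WT 3 only.

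The 3 most abundant lincRNAs differed more within the labels than between them. Gm26917, on chromosome 17, was at 45.8, 36.2 and 534 FPKM in KO 1 to KO 3 and 255, 268 and 82.2 FPKM in WT 1 to WT 3, a 14.8-fold range that left a log2 difference of -0.88 ± 1.07 (SE; limma adjusted p = 0.993). Without KO 3 that difference was -2.10, and without KO 2 it was -0.18. Gm10076, the copy of Rpl41, was at 77.7, 56.8 and 231 FPKM in KO and 257, 188 and 53.8 in WT. Epb41l4aos, which holds a snoRNA, was at 69.5, 24.6 and 236 FPKM in KO and 233, 135 and 47.1 in WT. All of them were high in KO 3, WT 1 and WT 2 and low in KO 1, KO 2 and WT 3. The log2 difference of Epb41l4aos was -0.61 ± 0.91 (SE; limma adjusted p = 0.993) and turned to 0.17 without KO 2.

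Malat1, the long RNA of nuclear speckles (6983 nt), had the opposite order. It was at 70.8, 183 and 33.2 FPKM in KO 1 to KO 3 and 31.0, 38.8 and 97.6 FPKM in WT 1 to WT 3, so it was high where Gm26917, Gm10076 and Epb41l4aos were low. Its log2 difference was 0.62 ± 0.70 (SE; limma adjusted p = 0.993) and turned to -0.01 without KO 2. Neat1, the paraspeckle scaffold, known from mouse knockouts to matter for forming the corpus luteum, lies next to Malat1 on chromosome 19 and is longer still (20771 nt). It was at 4.17, 3.34 and 3.21 FPKM in KO and 4.002, 3.22 and 2.96 in WT, a 1.41-fold range, against 5.90-fold for Malat1. Of the 14 proteins listed for paraspeckles, Nono and Sfpq among them, 0 were called, 6 had positive and 8 negative differences, and the median log2 difference was -0.04.

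**Figure D4:**
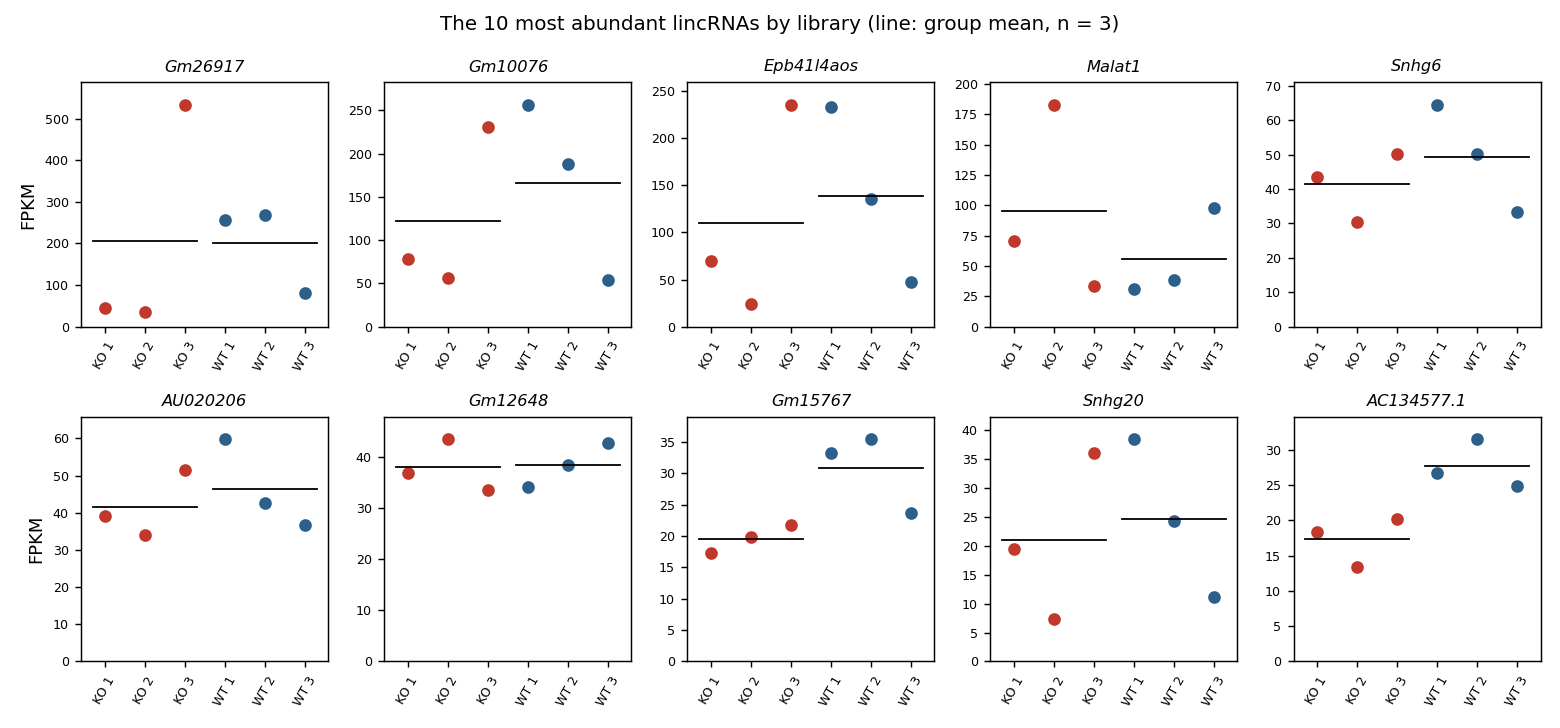
FPKM in each library (points: KO red, WT blue; line: group mean, n = 3) of the 10 most abundant lincRNAs, each panel with its own axis from 0. Gm26917, Gm10076, Epb41l4aos and Snhg20 are high in KO 3, WT 1 and WT 2, Malat1 is high in KO 2 and WT 3, and Gm15767 and AC134577.1 are lower in all KO than in all WT libraries.

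Whether the lincRNAs followed the same axis as other genes was read from the 3 libraries with the highest values. KO 3, WT 1 and WT 2 were the 3 highest for 65 lincRNAs (37.6%), beside 35.0% of all tested genes. The opposite set, KO 1, KO 2 and WT 3, was highest for 20 lincRNAs (11.6%), beside 31.4% of all tested genes. Malat1 and Gm26809 were 2 of those 20. The set KO 1, KO 3 and WT 1 was highest for 14 (8.09%), beside 3.15%. These shares are a description, and genes of 1 library are not independent. The lincRNAs and all tested genes were not matched for level or length. Slopes of level on gene length were 0.039, 0.194 and -0.123 in KO 1 to KO 3 and -0.132, -0.084 and 0.105 in WT 1 to WT 3. The part of length or level in these shares was not tested.

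**Figure D5:**
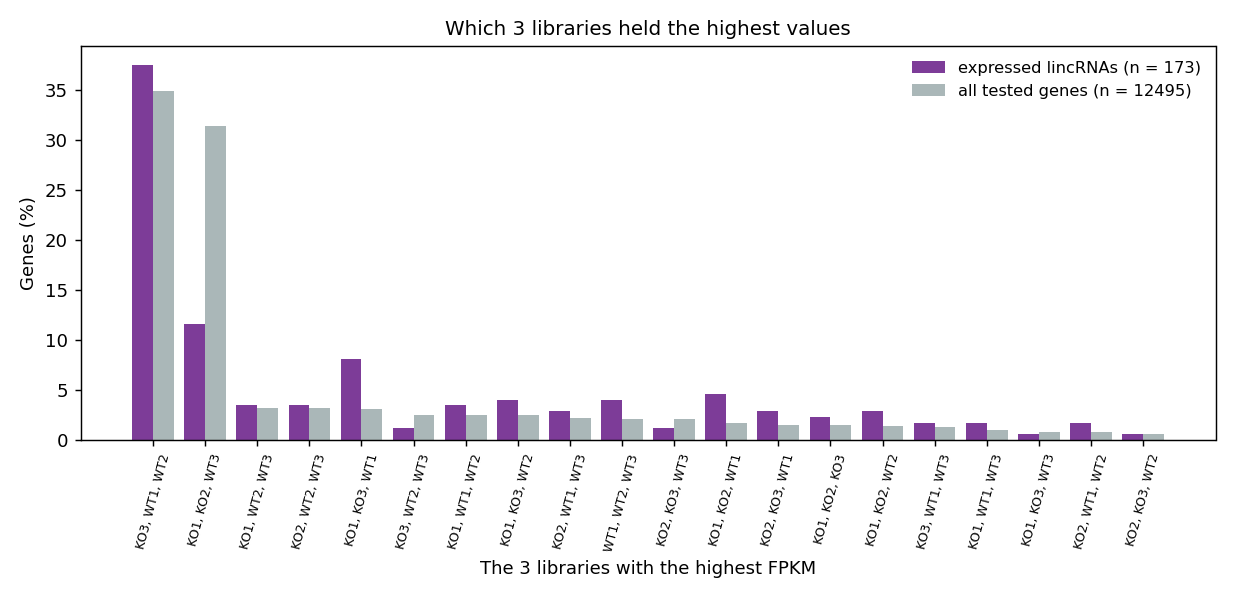
Share of genes (%) for which each of the 20 possible sets of 3 libraries held the highest FPKM, for the 173 expressed lincRNAs (purple) and all 12495 tested genes (grey). The first set, KO 3 with WT 1 and WT 2, holds 37.6% and 35.0%, and the second, KO 1 and KO 2 with WT 3, holds 11.6% and 31.4%.

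The set had 8 lincRNAs that span an annotated snoRNA, 10 that span an annotated miRNA and 16 that span either. The snoRNA hosts had 7 negative and 1 positive difference with a median log2 of -0.25, 0 called, beside -0.04 over all genes. Their summed FPKM was 164, 84.4 and 371 in KO 1 to KO 3 and 391, 250 and 117 in WT 1 to WT 3, high in the 3 libraries with few mitochondrial reads. Epb41l4aos made up much of that sum. Snhg6, which surrounds Snord87, was steadier at 43.6, 30.4 and 50.1 FPKM in KO and 64.5, 50.2 and 33.2 in WT. Snhg12, which holds 5 annotated snoRNA genes, was at 13.2, 7.80 and 21.3 FPKM in KO and 25.4, 15.4 and 10.6 in WT. Snhg12 thus followed the same library order as the sum.

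Snhg20, which holds an annotated small RNA and Mir6516, was at 19.5, 7.40 and 36.1 FPKM in KO and 38.4, 24.4 and 11.2 in WT. Snhg10, the host of Scarna13, a guide RNA of Cajal bodies, was at 2.53, 0.620 and 4.91 FPKM in KO and 7.13, 3.13 and 2.34 in WT, on 182 reads in all. Both were lowest in KO 2. Dancr, which holds Snora26, was at 1.25, 0.326 and 1.13 FPKM in KO and 1.12, 1.06 and 0.625 in WT, and was again lowest in KO 2. 2700038G22Rik, the host of Snord93, was the exception and the steadiest lincRNA of the set by SD on the log2(FPKM + 1) scale and by fold range, at 1.38, 1.34 and 1.18 FPKM in KO and 1.27, 1.22 and 1.24 in WT.

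Only 7 of the 25 listed snoRNA hosts were expressed lincRNAs by these tables, and the tables put several others in another class. Gas5 and Snhg1, classed as processed transcripts, were at 50.9, 48.0 and 44.7 FPKM (Gas5) and 32.3, 26.7 and 42.3 FPKM (Snhg1) in KO, against 64.6, 49.8 and 45.1 (Gas5) and 51.7, 46.7 and 29.5 (Snhg1) in WT. The 12 snoRNP proteins, such as fibrillarin (Fbl) and dyskerin (Dkc1), had 3 positive and 9 negative differences with a median log2 of -0.24, 0 called. Many spliced snoRNA hosts are removed by nonsense-mediated decay. Its 17 listed factors had 7 positive and 10 negative differences with a median log2 of -0.05, 0 called. The 15 tested genes of the nuclear exosome, which trims and degrades noncoding RNA, had 5 positive and 10 negative with a median log2 of -0.16, 0 called.

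The miRNA hosts showed no common direction: 4 were positive and 6 negative, with a median log2 difference of -0.07 and 0 called. The 10 hosts carry 29 annotated miRNAs, 14 of them in Mirg and 6 in Mir17hg. The values are of the host RNAs, and mature miRNAs were not measured. Mir17hg was at 9.28, 9.92 and 5.31 FPKM in KO 1 to KO 3 and 9.39, 8.27 and 5.29 FPKM in WT 1 to WT 3, with KO 3 and WT 3 alike and lowest. Gm2044, the miR-202 host, varied most among the hosts of the printed miRNAs, at 15.0, 5.82 and 20.8 FPKM in KO and 30.02, 13.8 and 5.48 in WT. Its spread within each label was larger than the log2 difference of -0.11 ± 0.66 (SE; limma adjusted p = 0.993).

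The let-7d host 6720427I07Rik was at 2.19, 1.81 and 1.13 FPKM in KO and 1.46, 1.98 and 1.79 in WT. E130102H24Rik, the miR-101a host, was at 1.86, 3.10 and 0.849 FPKM in KO and 1.39, 0.709 and 2.25 in WT. Neither separated the groups. Smkr-ps and Gm36283, which span miRNA genes that the tables name only by number, averaged 1.39 ± 1.22 and 1.23 ± 0.352 FPKM in KO and 1.61 ± 0.817 and 1.06 ± 0.246 in WT (SD, n = 3 each). Of the 13 listed miRNA processing genes, from Drosha and Dicer1 to the Argonautes, 10 were tested, 9 with positive and 1 with negative differences, a median log2 of 0.28 and 0 called.

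Mirg and H19 were the imprinted lincRNAs over the level rule. Mirg, the miRNA-rich end of the Dlk1-Dio3 domain on chromosome 12, was at 1.85, 1.72 and 1.92 FPKM in KO 1 to KO 3 and 3.16, 2.35 and 1.39 FPKM in WT 1 to WT 3, and its groups overlapped. Meg3, the better-known RNA upstream in the same domain, was far under the rule at 0.0591, 0.136 and 0.0180 FPKM in KO and 0.0298, 0.0720 and 0.127 in WT. Rian, which lies between them, was at no more than 0.0720 FPKM in any library. Per kilobase, the Mirg end was thus the abundant one in every library. Dlk1, the protein-coding gene of the domain, was listed at 0. Over the 11 tested imprinted protein-coding partners, 8 had positive and 3 negative differences, with a median log2 of 0.09 and 0 called.

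Ptgs2os2 lies beside Ptgs2, the prostaglandin synthase gene that the ovulatory signal induces in granulosa cells. Ptgs2os2 was at 0.981, 1.03 and 1.19 FPKM in KO and 1.00, 0.915 and 0.761 in WT, among the 3 steadiest of the set by the SD of log2(FPKM + 1), a scale that compresses values near 1 FPKM, with 2700038G22Rik and Gm17501. By fold range it was less so, at 1.56-fold against 1.25-fold for Gm1070 and 1.30-fold for Gm12648. Ptgs2 itself was at 48.6, 73.3 and 16.7 FPKM in KO and 37.8, 29.7 and 43.6 in WT.

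A further 2 lincRNAs had positive differences among the 5 highest. Gm6093, on chromosome 13, was at 19, 24.4 and 11.2 FPKM in KO and 4.11, 6.84 and 13.4 FPKM in WT, the highest difference of the set at 1.14 ± 0.45 (SE; limma adjusted p = 0.993). WT 3 lay above KO 3, so the groups overlapped. Exons of Gm6093 overlap those of Gm25043 and Gm47916, in part on the other strand, so some of its reads may belong to these genes. Gm8066, on chromosome 5, was at 1.32, 3.16 and 0.402 FPKM in KO and 0, 0.244 and 2.17 FPKM in WT, on 68 reads in all, with a log2 difference of 0.59 ± 0.55 (SE; limma adjusted p = 0.993). That of Gm8066 ran from 0.19 without KO 2 to 1.096 without WT 3, and was 1.70 with limma-voom. In both genes KO 2 was the highest library and WT 1 the lowest.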

How the data were processed

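For each library the authors deposited FPKM values of 54551 features, beside names, coordinates, exon lengths and biotypes. Per the submitters' processing notes, HISAT2 2.0.5 and mm10 were used. Counter and annotation release: not given in the sources used here. Per the labels' protocols the kit was TruSeq RNA. FPKM times length came out as whole reads, within 0.01 reads, for 100% of values. Depth was 16392098 to 19465847 reads, and Poisson intervals cover counting error only.

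Genes over 1 FPKM in at least 3 of 6 libraries were tested KO against WT with limma 3.58.1 (R 4.3.3, eBayes with trend, two-sided) on log2(FPKM + 1), which understates changes of low genes, with Benjamini-Hochberg adjustment over all 12495. The code was checked on simulated data. Shared 50-base words and copies (BLAST 2.17.0, at least 95% over 150 positions) came from GENCODE M21 transcripts.

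Named were the 10 most abundant, the 5 highest and 5 lowest differences, up to 10 without overlap between groups, snoRNA and miRNA hosts, listed genes, those at the level threshold and the 3 steadiest and 3 most variable. The set and all lists were chosen with earlier results of these data known. Alternatives were other pseudocounts, filters and scalings, limma-voom on recovered reads, a replicate block, a covariate and left-out libraries.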

Additional observations from a re-analysis of the deposited data

How the results depend on the processing

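Of the results recomputed, the counts of called genes and lincRNAs stayed at 0 under pseudocounts of 0.1 and 5, no filter, FPKM over 1 in all 6 libraries, library totals, TMM factors, limma-voom and with any 1 library left out (range 0 to 0). The exceptions were the removal of both KO 3 and WT 3, which leaves libraries from opposite sides of the main axis, and the length slope as a covariate. Without KO 3 and WT 3, limma called 3451 genes (27.6%; 1409 higher in KO, 2042 lower) and 45 lincRNAs (13 higher, 32 lower), with log2 differences of -2.07 for Epb41l4aos and 2.54 for Gm26809. With each library's slope of level on gene length as a covariate, 1 gene was called, 0 of them lincRNAs, and the log2 differences of Epb41l4aos (0.10) and Gm26809 (-0.20) changed sign. The cause was not tested. With 1 library left out, the median lincRNA log2 difference ran from -0.18 to -0.0012, and with the length slope it was 0.02. The differences of Epb41l4aos (-1.44 to 0.17), Malat1 (-0.014 to 1.199) and Gm26809 (-0.052 to 1.69) changed sign without KO 2. With replicate number as a block, 0 genes and 0 lincRNAs were called (27 and 1 at an unadjusted p under 0.05). Same-numbered libraries had deviations correlated at -0.42, -0.67 and -0.89, and 0 libraries correlated best with their own number. The main axis put same-numbered libraries on opposite sides, so these values cannot show whether such libraries were paired. Depth limits the 46 lincRNAs with a library under 10 reads.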

Other observations

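Some lincRNAs not described above also differed widely between libraries, and these were picked after their values were seen. Gm12505, on chromosome 4, was at 1.06, 3.90 and 0 FPKM in KO 1 to KO 3 and 0, 0.156 and 3.21 FPKM in WT 1 to WT 3, on 124 reads in all. Its high libraries were those of Malat1 and Gm26809. Lppos, which starts beside Lpp, a gene of focal adhesions, was at 1.60, 0.751 and 6.89 FPKM in KO and 5.29, 3.91 and 1.03 FPKM in WT. 1810044D09Rik, on chromosome 6, was at 1.43, 1.24 and 7.89 FPKM in KO and 6.51, 4.87 and 1.41 FPKM in WT. Lppos and 1810044D09Rik were high in KO 3, WT 1 and WT 2, and for all 3 genes the groups overlapped.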
